A study of Sesamum indicum with 6 samples.

Results

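RNA levels of mitotic spindle and cytokinesis genes were examined in young leaves of sesame (Sesamum indicum). These are the genes whose annotated product names a kinesin, TPX2, an aurora kinase, the spindle, a kinetochore, a centromere, the mitotic checkpoint, a 65-kDa microtubule-associated protein, the anaphase-promoting complex, cell division cycle 20 or KNOLLE. Of 20661 annotated genes, 116 carried such a name, and 115 of them had enough counts to be tested. The groups were 17-day-old recombinant inbred seedlings homozygous for SiCD_B, the allele of linkage group 8 that carries the mutant kan1, and seedlings homozygous for SiCD_A, which carries wild-type KAN1. There were 3 RNA pools for each allele, and a pool mixed equal amounts of RNA from 9 plants drawn at random from the 19 carrying that allele. With 27 places to fill from 19 plants, at least 8 places repeat a plant already used, so the p-values measure the spread between overlapping pools. Chance differences at other loci between the 19 plants of each group are not in that spread. The nature of the kan1 change is not given in the sources used here.

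When a plant cell divides, microtubules form a spindle that attaches to each chromosome at a protein complex called the kinetochore. A checkpoint holds the cell until every kinetochore is attached, after which the anaphase-promoting complex marks inhibitors of separation for destruction. The daughter cells are then parted by a new wall, the cell plate, which is built from the inside outward by a second microtubule array, the phragmoplast. In a leaf these steps are known for occurring while the young blade is still growing by division. Most kinesins are motor proteins that move along microtubules, and not all of them serve division.

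The pools held 56123250 to 82165322 counts, and the first principal component, with 60.0% of the variance, separated the groups. On the second component (14.9%) SiCD_A pool 3 stood away from its group, and it also had the fewest counts of the 6. Levels are in CPM, counts per 1000000 counts of a pool scaled with TMM factors. Because gene lengths are not corrected for, levels are compared only between pools and not between genes. KAN1 itself (LOC105167765) had 53.8, 52.9 and 56.5 CPM in SiCD_B pools, against 22.2, 20.7 and 25.2 CPM in SiCD_A pools. It was higher in each SiCD_B pool than in any SiCD_A pool (log2 fold change 1.26, SE 0.07, edgeR adjusted p = 3.33e-05). Among all 21009 genes tested with edgeR, 3462 were higher (16.5%) and 2971 lower (14.1%) in SiCD_B at an adjusted p under 0.05. The numbers were 4515 higher and 2169 lower with library size as the only scaling.

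Spindle and cytokinesis genes were mostly higher in SiCD_B pools, by modest amounts. Of the 115 tested, 72 rose (62.6%, against 16.5% of all genes tested), 7 fell (against 14.1%) and 36 did not pass the test. The median log2 fold change was 0.31 over the members, against 0.01 over all genes, and 14.5% of all genes tested exceeded the members' median. The 72 that rose had log2 fold changes of 0.14 to 0.77, with a median of 0.46, and 0 of 115 reached a log2 fold change of 1. The 7 that fell ranged from -1.01 to -0.14. In 76 members the lowest SiCD_B pool lay above the highest SiCD_A pool, and in 17 the order was the opposite. The corresponding shares over all genes were 25.8% and 22.6%. Leaving out any pool in turn left 66 to 69 members higher. With SiCD_A pool 3 left out, 68 were higher and 6 lower. The number lower was 3 without SiCD_B pool 2, 4 without SiCD_B pool 3, 13 with upper-quartile factors and 12 with DESeq2's test. In these bulk samples, a larger share of dividing cells and more RNA per dividing cell cannot be told apart.

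Aurora kinases, which phosphorylate spindle and chromosome proteins during mitosis, rose for 3 of 3 members (against 16.5% of all genes). Aurora-3 (LOC105171560, linkage group 1, coding segment 17178339 to 17178476) had 31.9, 34.9 and 35.4 CPM in SiCD_B pools, against 20.6, 21.8 and 20.2 CPM in SiCD_A pools. The groups did not overlap, and the log2 fold change was 0.71 (SE 0.06, edgeR adjusted p = 0.000150), a 1.63-fold difference. Aurora-2 (LOC105174053, linkage group 1, 1787168 to 1787203) had 47.0, 53.9 and 50.4 CPM in SiCD_B pools and 33.3, 35.0 and 30.1 CPM in SiCD_A pools, a log2 fold change of 0.62 (SE 0.07). Aurora-1 (LOC105164708, linkage group 6, 16877751 to 16877786) rose by 0.54 (SE 0.07) on the log2 scale, with 37.1 to 39.6 CPM in SiCD_B pools and 24.2 to 28.7 CPM in SiCD_A pools. Positions throughout are those of a coding segment in the deposited table, whose genome build is not given in the sources used here.

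TPX2, a microtubule nucleation factor that activates and positions aurora kinase in animals and plants, was annotated at 3 genes. Of these, 2 rose (66.7%, against 16.5% of all genes). LOC105164177 had 22.8, 26.3 and 26.0 CPM in SiCD_B pools, against 15.6, 17.1 and 14.0 CPM in SiCD_A pools, a log2 fold change of 0.68 (SE 0.09, edgeR adjusted p = 0.000746). LOC105178554 had 81.3 to 87.7 CPM in SiCD_B pools and 55.4 to 64.4 CPM in SiCD_A pools, a log2 fold change of 0.51 (SE 0.06). The third gene, LOC105160559, was under 1 CPM in every pool, with 24, 36 and 38 counts in SiCD_B and 55, 43 and 38 counts in SiCD_A. Its log2 fold change of -0.72 (SE 0.29, adjusted p = 0.0886) did not pass.

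Genes of the checkpoint, kinetochore and centromere rose for 12 of 15 members (80%, against 16.5% of all genes). Their median log2 fold change was 0.52, and 0 fell (against 14.1% of all genes). MAD2 (LOC105168368), which binds and restrains CDC20 until kinetochores are attached, had 33.9, 38.5 and 35.1 CPM in SiCD_B pools, against 24.6, 24.2 and 22.0 CPM in SiCD_A pools (log2 fold change 0.60, SE 0.07, edgeR adjusted p = 0.000400). BUBR1 (LOC105158854), which acts with MAD2 in the checkpoint, had 38.9, 40.2 and 39.7 CPM in SiCD_B pools and 26.1, 30.0 and 26.7 CPM in SiCD_A pools, a log2 fold change of 0.52 (SE 0.06). For each of these the groups were apart by more than the spread within either. BUB1 (LOC105178555), a checkpoint kinase that lies next to the TPX2 gene LOC105178554 on linkage group 16, rose by 0.67 (SE 0.10). MAD1 (LOC105169055), the kinetochore anchor of MAD2, had 36.6 to 40.8 CPM in SiCD_B pools and 33.0 to 37.0 CPM in SiCD_A pools, ranges that overlap (log2 fold change 0.17, SE 0.06, adjusted p = 0.0701). MAD1 passed as higher with the pool number as a block (0.0218), with library size alone (0.0367) and without SiCD_B pool 1 (0.0309).

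BUB3, which carries checkpoint proteins to kinetochores, had 3 members, all of which rose. The BUB3.1 gene LOC105169375 had 24.4, 27.3 and 24.8 CPM in SiCD_B pools and 16.5, 16.6 and 14.8 CPM in SiCD_A pools, a log2 fold change of 0.68 (SE 0.07). The other BUB3.1 gene, LOC105172669, rose by 0.29 (SE 0.06) and BUB3.3 (LOC105160006) by 0.60 (SE 0.11). Of the NDC80 complex, which grips the microtubule end, NDC80 (LOC105169166) rose by 0.56, NUF2 (LOC105169140) by 0.48 and Spc25 (LOC105157254) by 0.43 on the log2 scale. The largest log2 fold change of all members, 0.77 (SE 0.13, edgeR adjusted p = 0.00353), was that of the homolog of spindle and kinetochore-associated protein 1 (LOC105171019), with 12.8, 16.7 and 13.8 CPM in SiCD_B pools, against 8.69, 9.52 and 7.07 CPM in SiCD_A pools. Centromere proteins S (LOC105165618) and X (LOC105168558) rose by 0.53 and 0.48. Centromere protein V (-0.14, adjusted p = 0.218) and the homolog of ZW10, a kinetochore and membrane traffic protein of animals (0.02, adjusted p = 0.766), did not pass.

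The anaphase-promoting complex is a ubiquitin ligase, and CDC20 is the cofactor that directs it at the end of metaphase. Subunits of the complex rose for 6 of 11 members (54.5%, against 16.5% of all genes). Their median was 0.26, and 0 fell (against 14.1% of all genes). Subunit 2 (LOC105159978), part of the catalytic core, had 20.4, 23.9 and 20.8 CPM in SiCD_B pools, against 15.9, 15.8 and 15.6 CPM in SiCD_A pools, a log2 fold change of 0.46 (SE 0.07, edgeR adjusted p = 0.00181). Subunits 8, 5, 1, 10 and 6 rose by 0.41, 0.35, 0.34, 0.31 and 0.26. The call of subunit 10 (LOC105176098) was lost without SiCD_B pool 1 (adjusted p = 0.0514) or SiCD_B pool 3 (0.0574). Subunits 4, 7, 11 and 13 and the subunit 5-like gene did not pass, with log2 fold changes of -0.22 to 0.24. With library size alone, subunit 11 (LOC105169409, adjusted p = 0.0286) and subunit 13 (LOC105172477, 0.0312) passed as higher. Subunit 11 also passed without SiCD_B pool 1 (0.0450) and subunit 13 with the pool number as a block (0.0331).

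CDC20 genes rose for 2 of 4 members (50%, against 16.5% of all genes). CDC20.2 (LOC105160231, linkage group 4, 8363809 to 8363910) had 193, 224 and 221 CPM in SiCD_B pools, against 127, 139 and 116 CPM in SiCD_A pools. The lowest SiCD_B pool was well above the highest SiCD_A pool, and the log2 fold change was 0.74 (SE 0.08, edgeR adjusted p = 0.000429). The CDC20.2-like gene LOC105161632 had 84.0, 91.2 and 89.9 CPM in SiCD_B pools and 56.0, 59.6 and 53.5 CPM in SiCD_A pools. It rose by 0.65 on the log2 scale (SE 0.05), with the smallest edgeR p of any member (adjusted p = 0.000149). The other CDC20 genes, LOC105172739 and LOC105160771, had 13 to 53 counts in SiCD_B pools and 7 to 52 in SiCD_A pools, and did not pass.

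**Figure D1:**
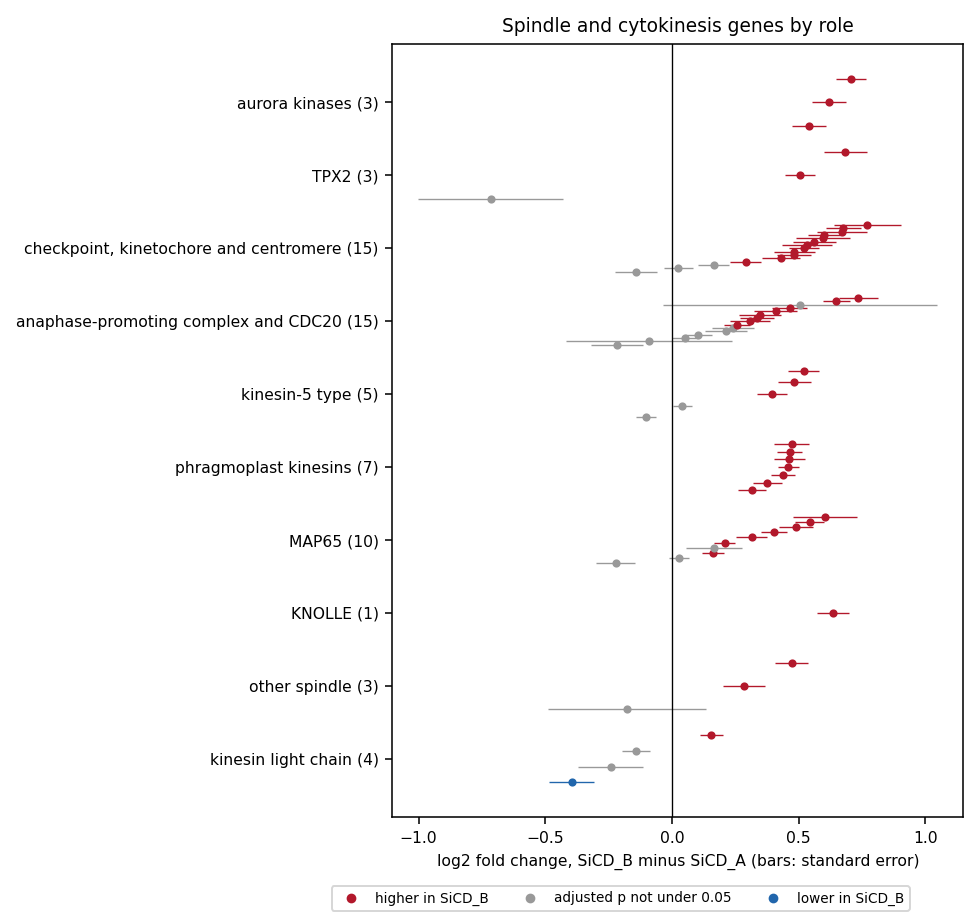
Log2 fold change (SiCD_B minus SiCD_A) of each tested member outside the kinesin families other than kinesin-5 and the phragmoplast kinesins, by role, with its standard error from edgeR's fit and the number tested in parentheses. All 3 aurora kinases and all 7 phragmoplast kinesins lie right of 0 and passed, while the kinesin light chains lie on either side.

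Kinesin-5 motors, which slide antiparallel spindle microtubules apart, were split. KIN-5B (LOC105174410) had 84.7, 95.4 and 92.2 CPM in SiCD_B pools, against 58.9, 66.7 and 64.3 CPM in SiCD_A pools, a log2 fold change of 0.52 (SE 0.06, edgeR adjusted p = 0.000551). The KIN-5C genes LOC105161746 and LOC105174040 rose by 0.48 and 0.40 (SE 0.06 each). The KIN-5D genes did not pass. LOC105170675 had 83.5, 82.0 and 83.3 CPM in SiCD_B pools and 79.9, 81.7 and 80.2 CPM in SiCD_A pools (0.04, SE 0.04, adjusted p = 0.421). LOC105170356 had 137 to 144 CPM in SiCD_B pools and 150 to 153 CPM in SiCD_A pools (-0.10, SE 0.04, adjusted p = 0.0710), and it passed as lower with upper-quartile factors (0.0451) and DESeq2's test (0.0416). Its span overlaps that of another gene, LOC105170357, in the RefSeq table. Without strand any shared reads cannot be told apart, and whether there are any was not tested. A further KIN-5D gene (LOC105161488) was the untested member, with 7, 14 and 1 counts in SiCD_B pools and 6, 7 and 12 in SiCD_A pools.

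Phragmoplast kinesins rose for 7 of 7 members (against 16.5% of all genes), within a narrow span of log2 fold changes from 0.31 to 0.47. KIN-12 motors guide the division plane or hold the phragmoplast in Arabidopsis. KIN-12C (LOC105178843, on an unplaced sequence) had 182, 190 and 194 CPM in SiCD_B pools, against 136.6, 136.9 and 138.1 CPM in SiCD_A pools (log2 fold change 0.46, SE 0.04, edgeR adjusted p = 0.000201). KIN-12F (LOC105176613) had 163, 177 and 171 CPM in SiCD_B pools and 121.5, 130.0 and 118.5 CPM in SiCD_A pools, a log2 fold change of 0.47 (SE 0.05). NACK1 (LOC105158017), a kinesin that drives phragmoplast expansion through a kinase cascade in tobacco, had 86.7, 92.0 and 91.1 CPM in SiCD_B pools and 65.7, 69.4 and 63.9 CPM in SiCD_A pools, a log2 fold change of 0.44 (SE 0.05). NACK2 (LOC105161961) rose by 0.47 and overlaps LOC110011974 in the RefSeq table.

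MAP65 proteins cross-link antiparallel microtubules, and they rose for 7 of 10 members (70%, against 16.5% of all genes). The MAP65-3 genes, named for a protein that bundles the phragmoplast midline in Arabidopsis, rose for 3 of 3. LOC105179230 had 37.0, 41.0 and 38.3 CPM in SiCD_B pools, against 25.8, 28.0 and 26.0 CPM in SiCD_A pools (log2 fold change 0.54, SE 0.06, edgeR adjusted p = 0.000356). LOC105173221 rose by 0.49 (SE 0.07) and LOC105160551 by 0.40 (SE 0.05). MAP65-1, a bundler of microtubules in interphase as well as mitosis, rose for 2 of 2. LOC105176657 had 175 to 180.0 CPM in SiCD_B pools and 147 to 159 CPM in SiCD_A pools, a log2 fold change of 0.21 (SE 0.04), and LOC105174910 rose by 0.16. The call of LOC105174910 was lost without SiCD_B pool 2 or 3 or SiCD_A pool 2 or 3 (adjusted p = 0.0510 to 0.0663). Of the MAP65-6-like genes, LOC105177262 rose by 0.61 (SE 0.13) and LOC105179880 by 0.31, while LOC105160166 had 76.4 to 81.4 CPM in SiCD_B pools and 76.5 to 78.5 CPM in SiCD_A pools (0.03, adjusted p = 0.643). MAP65-5 (0.17) and MAP65-8 (LOC105168409, -0.22, adjusted p = 0.0584) did not pass. With upper-quartile factors (0.0483) or DESeq2's test (0.0462), MAP65-8 passed as lower.

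KNOLLE, the syntaxin that fuses vesicles at the cell plate, was represented by a single gene (LOC105171656, linkage group 10, 2113264 to 2113377). It had 47.8, 53.3 and 47.6 CPM in SiCD_B pools, against 30.7, 34.2 and 30.7 CPM in SiCD_A pools. The groups did not overlap, and the log2 fold change was 0.64 (SE 0.06, edgeR adjusted p = 0.000294), a 1.56-fold difference. Of the other spindle genes, the homolog of the abnormal spindle-like microcephaly-associated protein (LOC105175362), which focuses spindle poles in animals, had 68.9, 82.2 and 74.1 CPM in SiCD_B pools and 55.1, 55.6 and 51.5 CPM in SiCD_A pools, a log2 fold change of 0.47 (SE 0.07). Mitotic-spindle organizing protein 1B-like (LOC105159931), named for a partner of gamma-tubulin complexes, rose by 0.28 (SE 0.08). Its call was lost without each pool except SiCD_A pool 2 (adjusted p = 0.0586 to 0.0823). MULTIPOLAR SPINDLE 1 (LOC105166400), known for meiosis in Arabidopsis, was under 1 CPM in every pool and did not pass (-0.18, adjusted p = 0.699).

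**Figure D2:**
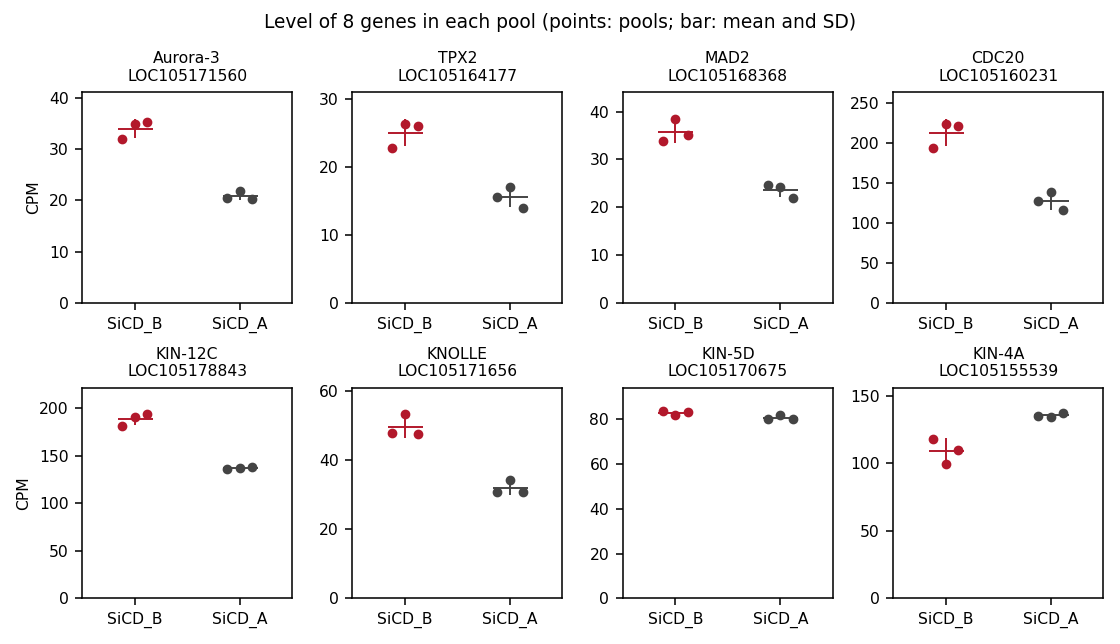
CPM of 8 genes in each pool, with SiCD_B pools at left and SiCD_A pools at right of each panel (points, pools, with bars for the mean and SD of 3 pools). Aurora-3, TPX2, MAD2, CDC20.2, KIN-12C and KNOLLE were higher in each SiCD_B pool than in any SiCD_A pool, KIN-5D (LOC105170675) differed by little, and KIN-4A (LOC105155539) was lower.

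The other kinesins, 49 genes of 9 kinds, rose for 26 members (53.1%, against 16.5% of all genes). They fell for 6 (12.2%, against 14.1%) and did not pass for 17. The kinds differed in their counts. KIN-10 genes, of a family known in animals for pushing chromosome arms, rose for 4 of 4, with log2 fold changes of 0.42 to 0.55. KIN-10B (LOC105174449) had 30.6, 33.6 and 31.9 CPM in SiCD_B pools, against 21.7, 21.9 and 22.6 CPM in SiCD_A pools (0.54, SE 0.05, edgeR adjusted p = 0.000286). The single KIN-6 gene (LOC105166061) had 37.3, 42.1 and 40.1 CPM in SiCD_B pools and 24.3, 25.5 and 26.1 CPM in SiCD_A pools, a log2 fold change of 0.66 (SE 0.06). KIN-6 motors bundle the central spindle in animals. KIN-8B (LOC105158559) rose by 0.38. The single KIN-1 gene, the conventional kinesin, had 2.45 to 2.70 CPM in SiCD_B pools and 2.03 to 2.50 CPM in SiCD_A pools, and did not pass (0.18, SE 0.14, adjusted p = 0.357).

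KIN-14 motors, which move toward microtubule minus ends, rose for 11 of 16 members (68.8%, against 16.5% of all genes). They fell for 1 (6.25%, against 14.1%). Both KIN-14N genes, whose Arabidopsis relatives help shape the spindle, rose. LOC105174811 had 124, 143 and 132 CPM in SiCD_B pools, against 91.0, 100.3 and 87.8 CPM in SiCD_A pools (log2 fold change 0.52, SE 0.07, edgeR adjusted p = 0.000878), and LOC105176730 rose by 0.42 (SE 0.05). Of the 7 KIN-14I and KIN-14J genes, 2 were higher and 1 lower (28.6% and 14.3%, against 16.5% and 14.1% of all genes). KIN-14I LOC105168936, with 73, 82 and 72 counts in SiCD_B pools and 106, 103 and 100 counts in SiCD_A pools, fell by 0.70 on the log2 scale (SE 0.18, adjusted p = 0.0200). Its call was lost without SiCD_B pool 2, SiCD_B pool 3 or SiCD_A pool 3 (adjusted p = 0.0515 to 0.0567). The KIN-14J gene LOC105164089 (-0.19, adjusted p = 0.0508) passed as lower with DESeq2 size factors (0.0423) and upper-quartile factors (0.0379), and the number of KIN-14 genes lower was 3 without SiCD_B pool 1. The KIN-14F genes, LOC105175000 and LOC105176624, rose by 0.18 and 0.31. In the RefSeq table their spans overlap those of the histone H4 genes LOC105174999 and LOC105176568, which rose by 0.86 and 0.97. Without strand any shared reads cannot be told apart, and whether there are any was not tested. LOC105176624 was not called without SiCD_B pool 1, SiCD_B pool 2, SiCD_A pool 1 or SiCD_A pool 2 (adjusted p = 0.0859 to 0.128). The rise of KIN-14B (LOC105176396), at 0.14, was lost without any pool (adjusted p = 0.0583 to 0.128) and with DESeq2 size factors (0.0668) or upper-quartile factors (0.0677) and with DESeq2's test (0.0719).

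KIN-4 motors had calls in both directions, with 3 of 8 higher and 2 lower (37.5% and 25%, against 16.5% and 14.1% of all genes). KIN-4A, known in Arabidopsis for its part in cell wall deposition during interphase, fell for 2 of 2 members. LOC105155539 had 118, 99.7 and 109.8 CPM in SiCD_B pools, against 135.5, 134.7 and 137.5 CPM in SiCD_A pools (log2 fold change -0.31, SE 0.06, edgeR adjusted p = 0.00508). LOC105159141 had 171, 154 and 160.0 CPM in SiCD_B pools and 179.8, 174 and 191 CPM in SiCD_A pools (-0.17, SE 0.05, adjusted p = 0.0397). Its call was lost with library size alone (adjusted p = 0.120) and without any pool except SiCD_B pool 1 (0.0504 to 0.137). KIN-4C rose for 3 of 6. LOC105159036 had 123, 134 and 121 CPM in SiCD_B pools and 90.1, 104 and 88.6 CPM in SiCD_A pools (0.41, SE 0.07), and LOC105172000 rose by 0.49 (SE 0.08). LOC105179937, with means of 2.10 CPM in SiCD_B pools and 1.40 CPM in SiCD_A pools, rose by 0.59, a call lost without SiCD_B pool 2 or 3 or SiCD_A pool 1 or 2 (adjusted p = 0.0694 to 0.0972). The other KIN-4C genes were under 1 CPM and did not pass, and LOC105159264 and LOC105159265 among them are neighbours on linkage group 3.

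KIN-7 motors, other than the NACK genes, rose for 3 of 12 members (25%, against 16.5% of all genes) and fell for 2 (16.7%, against 14.1%), shares near those of all genes. KIN-7C (LOC105159457) had 42.6, 48.4 and 47.5 CPM in SiCD_B pools, against 28.6, 29.5 and 28.1 CPM in SiCD_A pools, a log2 fold change of 0.68 (SE 0.06, edgeR adjusted p = 0.000155). KIN-7N (LOC105162183) rose by 0.50 (SE 0.05) and KIN-7O (LOC105159896) by 0.43 (SE 0.07). KIN-7K (LOC105159650), annotated as chloroplastic, had 267, 263 and 262 CPM in SiCD_B pools and 284, 287 and 281 CPM in SiCD_A pools (-0.10, SE 0.04, adjusted p = 0.0725). With upper-quartile factors (0.0442) or DESeq2's test (0.0237), KIN-7K passed as lower. The KIN-7D and KIN-7E genes lay between -0.07 and 0.10 and did not pass, except that KIN-7E LOC105169702 was higher with library size alone (0.0489). KIN-7G LOC105171112 fell by 0.14 (SE 0.04, adjusted p = 0.0468), a call lost with library size alone (0.209), with no filter (0.0528) and without any pool except SiCD_B pool 3 (0.0650 to 0.145). The other KIN-7G gene, LOC105166078 (-0.15, adjusted p = 0.0559), passed as lower with DESeq2 size factors (0.0463), upper-quartile factors (0.0384) and without SiCD_B pool 1 (0.0149). KIN-7F LOC105179046, with 56, 42 and 34 counts in SiCD_B pools and 64, 91 and 69 in SiCD_A pools, fell by 1.01 on the log2 scale (SE 0.27). Its call was lost without SiCD_B pool 2, SiCD_B pool 3 or SiCD_A pool 2 (0.0717 to 0.0776).

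KIN-13 motors, which take microtubules apart in animals, rose for 2 of 3 members (66.7%, against 16.5% of all genes). Both KIN-13B genes rose, LOC105163981 by 0.30 and LOC105157629 by 0.23, and KIN-13A (LOC105171527) had 127 to 131 CPM in SiCD_B pools and 136 to 139 CPM in SiCD_A pools (-0.10, SE 0.04, adjusted p = 0.0693), which passed as lower with upper-quartile factors (0.0418) and DESeq2's test (0.0470). KIN-UC (LOC105174191), an armadillo-repeat kinesin, had 78.9, 83.1 and 79.7 CPM in SiCD_B pools, against 98.9, 98.0 and 98.5 CPM in SiCD_A pools. It had the smallest p of the 7 that fell, with a log2 fold change of -0.29 (SE 0.04, edgeR adjusted p = 0.000982). KIN-UB rose at LOC105171469 (0.24) and did not pass at LOC105155754 (0.03, SE 0.04, adjusted p = 0.591). Kinesin light chain-related genes, which lack a motor, rose for 1 of 4 and fell for 1 (25% each way, against 16.5% and 14.1% of all genes). LOC105163407 had 18.8, 21.7 and 18.6 CPM in SiCD_B pools and 24.9, 23.9 and 29.1 CPM in SiCD_A pools (-0.40, SE 0.09), and it overlaps LOC105163406 in the RefSeq table. LOC105156026 rose by 0.15, and its call was lost without any pool (adjusted p = 0.0518 to 0.109).

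**Figure D3:**
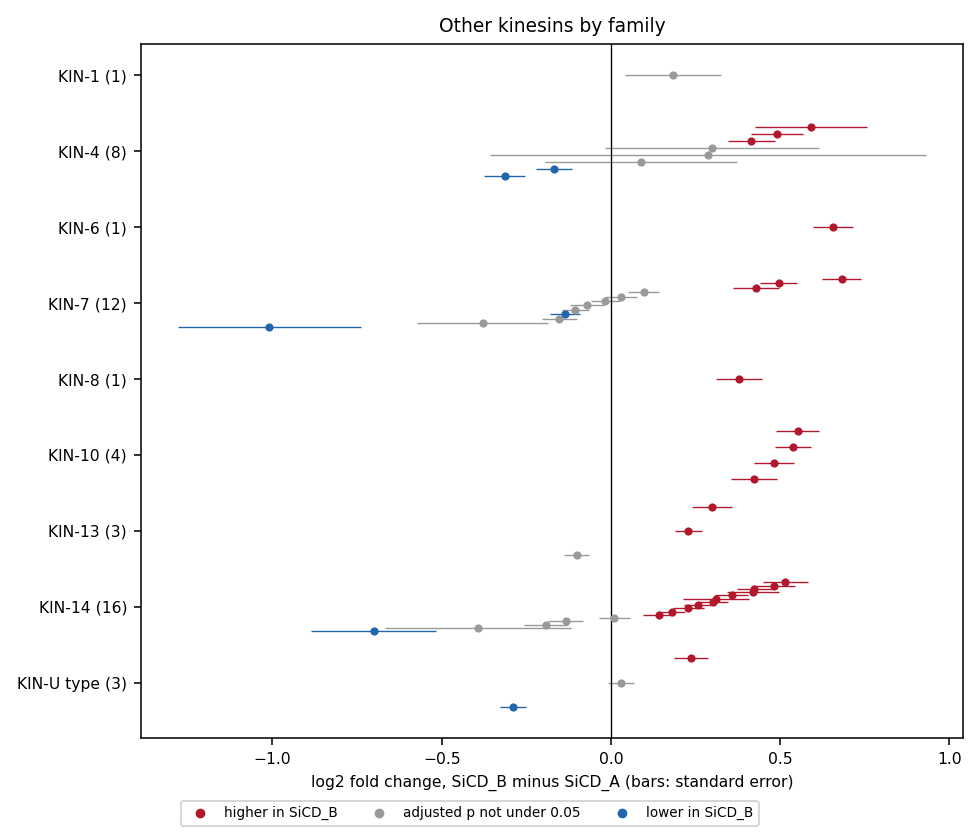
Log2 fold change (SiCD_B minus SiCD_A) of the 49 other kinesins by family, with the standard error from edgeR's fit and the number tested in parentheses. All 4 KIN-10 genes lie right of 0, while KIN-4 and KIN-7 spread to either side.

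Unequal change between relatives can be described without any scaling, as the ratio of their counts within a pool. These pairs were chosen after their values were seen, so the ratios are a description with no test, and a ratio shows unequal change only. KIN-5B LOC105174410 over KIN-5D LOC105170356 was 0.616, 0.675 and 0.642 in SiCD_B pools, against 0.391, 0.442 and 0.422 in SiCD_A pools. KIN-4C LOC105172000 over KIN-4A LOC105155539 was 0.397, 0.572 and 0.516 in SiCD_B pools and 0.288, 0.271 and 0.284 in SiCD_A pools. KIN-7N LOC105162183 over KIN-7G LOC105171112 was 0.702, 0.777 and 0.702 in SiCD_B pools and 0.454, 0.477 and 0.474 in SiCD_A pools. The BUB3.1 gene LOC105169375 over its namesake LOC105172669 was 0.650, 0.640 and 0.599 in SiCD_B pools and 0.475, 0.505 and 0.464 in SiCD_A pools. Both of these BUB3.1 genes rose, by unequal amounts. In none of the 4 ratios did the groups overlap, an outcome that choosing pairs by their values makes likely.

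**Figure D4:**
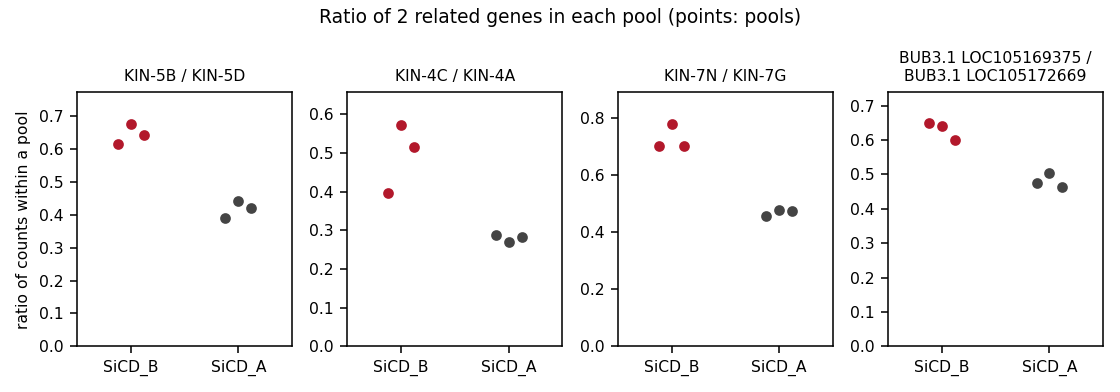
Ratio of the counts of 2 related genes within each pool (points, pools, SiCD_B at left of each panel), for the 4 pairs given in the text. For each pair the 3 SiCD_B pools lie above the 3 SiCD_A pools, and SiCD_B pool 1 has the lowest KIN-4C to KIN-4A ratio of its group, at 0.397.

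Levels of the members also varied between pools of a group. The median over members of the log2 ratio to the SiCD_A mean was 0.27, 0.39 and 0.30 in SiCD_B pools 1, 2 and 3, and -0.01, 0.03 and -0.02 in SiCD_A pools 1, 2 and 3. SiCD_B pool 2 was the highest of its group for 70 of the 106 members with a mean of at least 1 CPM, against 34.1% of all 18752 tested genes at that level. SiCD_B pool 1 was the lowest of its group for 64, against 36.9% of those genes. SiCD_A pool 2 was the highest of its group for 61, against 29.0%. These shares were not tested. Without SiCD_B pool 2 the median log2 fold change of the members was 0.27. All 72 rises were among the 106 members of at least 1 CPM, and of the 9 tested members below that level 1 fell and 8 did not pass.

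Members lay on all 16 linkage groups, with 7 on unplaced sequences. Linkage group 8, which carries the alleles, held 15, of which 8 rose and 1 fell, against 14.6% and 13.9% of all tested genes of that linkage group. Counts on the 3 linkage groups with 12 members each are small, and the difference between them was not tested. On linkage group 3, 8 rose and 1 fell, on linkage group 4, 8 rose, and on linkage group 10, 4 rose. The shares of all genes on these 3 linkage groups were not computed. Over all genes tested they were 16.5% higher and 14.1% lower. In the authors' deposited table, 71 of the 116 were higher, against 15.6% of all its genes, and 13 were lower, against 16.1%, at an adjusted p under 0.05.

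Other genes of mitosis, listed by product names outside those above, were read from the same fit. The cohesion and condensation list covers genes that act when sister chromatids are held together, released or compacted. Matching by name also took in SMC5, SMC6B and the non-SMC elements that act with them. This list rose for 18 of 29 members (62.1%, against 16.5% of all genes) with a median of 0.38, and 0 fell (against 14.1%). SHUGOSHIN 2 (LOC105170753), which protects cohesion at centromeres, rose by 0.62 (SE 0.06, edgeR adjusted p = 0.000248), and SMC6B (LOC105160617), of a complex for DNA repair, by 0.59 (SE 0.06). Genes of microtubule nucleation and severing rose for 14 of 26 (53.8%, against 16.5% of all genes) with a median of 0.22, and 0 fell (against 14.1%). EB1C (LOC105177584), which tracks growing microtubule ends, rose by 0.65 (SE 0.07), and gamma-tubulin complex component 3 (LOC105159662) by 0.46 (SE 0.06).

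Not every list chosen for a part in division was higher. Tubulins, which all cells need, rose for 4 and fell for 3 of 16 (25% and 18.8%, against 16.5% and 14.1% of all genes), with a median of -0.08. Tubulin alpha-3 (LOC105170594) fell by 0.46 and tubulin beta-8-like (LOC105157707) rose by 0.33. With library size alone, 1 tubulin was lower. The number of tubulins lower was 5 without SiCD_A pool 3 and 1 without SiCD_B pool 2, SiCD_B pool 3, SiCD_A pool 1 or SiCD_A pool 2. The cell plate list, which leaves out KNOLLE, took dynamin-related proteins, callose synthases, formins and SNAP25 homologs by name. Whole families were matched, so not all of its genes are known to act at the cell plate, and many serve non-dividing cells. Its genes rose for 7 and fell for 7 of 45 (15.6% each way, near the 16.5% and 14.1% of all genes), with a median of 0.01. Formin-like proteins 6 (LOC105164854) and 2 (LOC105167150), which nucleate actin, rose by 0.68 and 0.78. Other genes named formin-like protein 6 fell, LOC105158595 by 0.43 (edgeR adjusted p = 0.0355) and LOC105177810 by 0.22 (0.0279). Dynamin-related protein 4C (LOC105164086) fell by 1.61 (0.00532). The number of cell plate genes lower was 4 without SiCD_B pool 2, SiCD_B pool 3 or SiCD_A pool 1, and the number higher was 11 with library size alone.

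Markers of other stages and cell types were set beside the members, and their part in the result was not tested. S phase genes (replication licensing factors, histone H4, sliding clamp and ribonucleotide reductase) rose for 20 of 24 (83.3%, against 16.5% of all genes) and fell for 1 (4.17%, against 14.1%). Their summed level was 1734 to 2194 CPM in SiCD_B pools, against 1174 to 1462 CPM in SiCD_A pools. Histone H4 LOC105174999 rose by 0.86 and the ribonucleotide reductase small chain gene LOC105177429 by 0.56. The gene that fell, LOC105156960, is also named a ribonucleotide reductase small chain (-0.26, SE 0.04, edgeR adjusted p = 0.00279). The sums include MCM5 (LOC105162378), which did not pass. It had 257.5, 500.3 and 445.9 CPM in SiCD_B pools and 288.3, 351.1 and 253.3 CPM in SiCD_A pools. Vascular genes fell for 10 of 17 (58.8%, against 14.1% of all genes) and rose for 1 (5.88%, against 16.5%). Their summed level was 283 to 321 CPM in SiCD_B pools and 344 to 373 CPM in SiCD_A pools. Among them SIEVE ELEMENT OCCLUSION B LOC105176450, a phloem filament gene, fell by 0.54 and IRREGULAR XYLEM 15-like LOC105169520, of xylan synthesis, rose by 0.57. The number of vascular genes lower was 4 without SiCD_B pool 2 or SiCD_A pool 1 and 5 without SiCD_B pool 3.

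Photosynthesis genes, as markers of mature leaf cells, fell for 7 of 52 (13.5%, against 14.1% of all genes). They rose for 1 (1.92%, against 16.5% of all genes), and their median log2 fold change was -0.13. Their summed level was 39490 to 45390 CPM in SiCD_B pools and 38730 to 54960 CPM in SiCD_A pools, so the groups overlapped, SiCD_A pool 3 being the lowest of all. Oxygen-evolving enhancer 2-like LOC105178664 fell by 0.79 and a RuBisCO small chain gene, LOC105170701, rose by 0.47. Without SiCD_A pool 3 the number lower was 36, and it was 1 without any other pool except SiCD_B pool 1. Trichome and stomata genes rose for 5 of 18 (27.8%, against 16.5% of all genes) and fell for 2 (11.1%, against 14.1%), with 296 to 306 CPM in SiCD_B pools and 288 to 297 CPM in SiCD_A pools. EPIDERMAL PATTERNING FACTOR-like 2 (LOC105159073), a signal peptide gene, rose by 1.36, and FAMA (LOC105171872), which ends the divisions of guard cell precursors, fell by 0.75. The number of these genes lower was 1 without SiCD_B pool 2, SiCD_B pool 3 or SiCD_A pool 2.

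**Figure D5:**
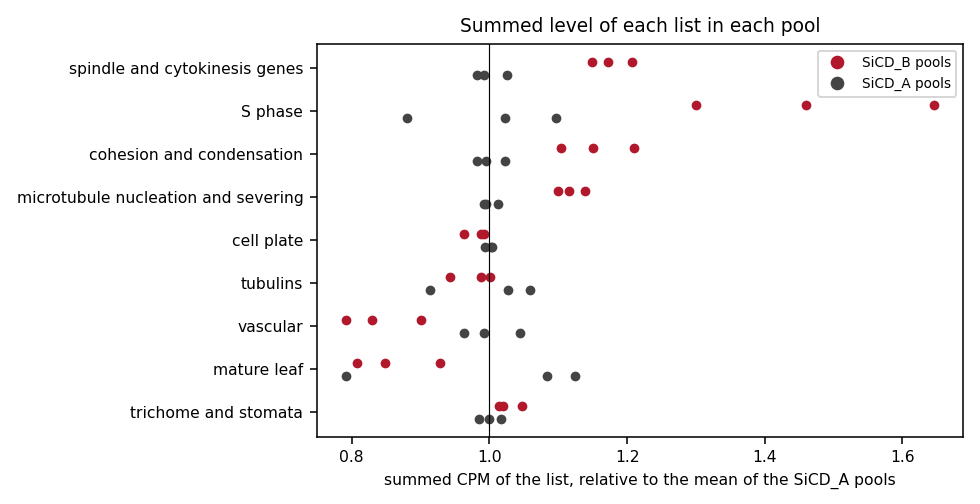
Summed CPM of each list in each pool, divided by the mean of the SiCD_A pools (points, pools, with SiCD_B above SiCD_A in each row). Spindle and cytokinesis genes lie at 1.15 to 1.21 in SiCD_B pools and 0.982 to 1.03 in SiCD_A pools, S phase genes at 1.30 to 1.65 in SiCD_B pools and 0.880 to 1.10 in SiCD_A pools, and vascular genes at 0.792 to 0.900 in SiCD_B pools and 0.963 to 1.04 in SiCD_A pools.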

How the data were processed

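Per the labels, young leaf RNA was made into unstranded TruSeq version 2 libraries and sequenced from both ends, 100 bases each. Among the tools in the submitters' processing notes are STAR, HTSeq and DESeq2, with SAMtools, Trim Galore and FastQC 0.11.4. The authors' count table holds unnormalized counts of reads for 25762 genes and 6 pools. The authors' deposited table gives log2 fold changes and adjusted p-values for 20661 genes, with product names and coding segments. Its 116 members all occur in the RefSeq table of S_indicum_v1.0, used for linkage groups, overlaps and neighbours. Overlaps compare whole gene spans, by which 8 members overlap another gene.

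Differences were tested on these counts with edgeR 4.0.16, run in R 4.3.3 (quasi-likelihood, robust, TMM scaling, filterByExpr), SiCD_B minus SiCD_A, over 6 pools without covariates. Adjusted p-values are Benjamini-Hochberg values over 21009 genes, called below 0.05. A standard error is the log2 fold change divided by the square root of F. The fit was tested on simulated counts. A count of 0 allows up to 3 counts, which is 0.0365 to 0.0535 CPM before scaling and covers only counting error. A chi-square comparison of same-group pools gave 5.32 to 30.4 per degree of freedom, above sampling noise, and each pool was kept as its own replicate. Levels are CPM.

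The members, their classes and the lists were chosen with earlier results of these data known. Named by rule were all aurora, TPX2 and KNOLLE genes, up to 3 called members of smallest p and the one of highest level in each other class, all members lower, 3 uncalled members of smallest standard error, and 2 genes per list. Other members and list genes were named after their values were seen. Formin was matched as a whole word and trichome birefringence genes were left out of the trichome list, after their names were read. The planned search of promoters for a motif was not run. Alternatives were 3 other scalings, dropping the low-count filter, requiring 1 CPM in 3 pools, DESeq2 1.42.0, limma-voom (limma 3.58.1), the pool number as a block, a threshold of 0.01, and leaving out each pool.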

Additional observations from a re-analysis of the deposited data

How the results depend on the processing

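The number of members higher was 72 in the reported fit, 66 to 69 without each pool in turn, and 64 to 76 under the other alternatives. Of these 72, 71 remained with all 3 other scalings, and 65 under every alternative except the threshold of 0.01. The members' median log2 fold change was 0.27 to 0.36 under all alternatives run, and its distance from the median of all genes was 0.27 to 0.33. The number lower, 7, was the less settled. It was 3 to 9 without each pool in turn, 13 with upper-quartile factors, 12 with DESeq2's test, 2 at a threshold of 0.01, and 5 to 10 otherwise. Of the 7, 3 remained under every alternative except the threshold of 0.01, and the cause was not tested. Over all genes, 2132 to 3118 were higher and 1787 to 2895 lower without each pool in turn, the fewest without SiCD_B pool 2 in each direction, and 1731 and 1408 at a threshold of 0.01. With the pool number as a replicate block, 74 members were higher and 10 lower, and 3784 and 3397 of all genes. Pools of the same number share no stated origin, and their deviations from the group means correlated by 0.0701, 0.00909 and 0.0565, so they were not treated as pairs. The search of promoters for a motif was not run, with either of its alternatives. No log2 fold change of a member reversed its sign with a call under any alternative. Members below 1 CPM, with counts of at most 91 in a pool, limit what can be said of the low copies of TPX2, CDC20, KIN-4C and KIN-5D.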
